A study of Homo sapiens with 6 samples.

Results

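The JmjC histone lysine demethylases described here were 10 genes, KDM2A, KDM2B, KDM3A, KDM3B, KDM4A, KDM4B, KDM4C, KDM5B, KDM6B and KDM7A, found by exact match of their symbols among the 59653 genes of the count table. RNA-sequencing was carried out on SK-OV3 cells, a human ovarian cancer line of wild-type genotype in the labels, 48 h after transfection. By the study's account the line lacks expression of p53. The 3 siPVT1 libraries came from cells given a pool of 4 siRNAs against the long non-coding RNA PVT1, and the 3 siControl libraries from cells given a non-targeting pool. The model is therefore 1 cell line and 1 siRNA pool, and the labels number the replicates without saying that they were separate cultures, so p-values measure the spread between these libraries, which may be technical. Cells of both groups were kept in full serum medium.

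JmjC demethylases remove methyl groups from lysines of histone tails by oxidation, using iron, 2-oxoglutarate and molecular oxygen, so that their activity depends on the oxygen supply of the cell. Families differ in the lysine they act on: KDM3 enzymes act on H3K9 in its lower methylation states, KDM4 enzymes on trimethylated H3K9 and H3K36, KDM5 enzymes on H3K4, KDM6 enzymes on H3K27 and KDM2 enzymes on H3K36. Several of their genes, KDM3A and KDM4B among them, are known targets of HIF, the transcription factor of the response to low oxygen.

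The targeted RNA was lower in siPVT1. PVT1 stood at 3289, 4079.7 and 3368 normalized counts in siControl replicates 1 to 3 and at 2343.5, 2105 and 2057 in siPVT1, a fall of 39.4% (log2 fold change -0.72 ± 0.097 SE, edgeR adjusted p = 0.000342). Library totals were 28383171 to 35059576 counts, and normalized counts are counts brought to a common library size by TMM scaling. A gene was counted as differentially expressed at an adjusted p-value under 0.05 and at least a 2-fold change, a log2 fold change of 1 in either direction, and as risen or fallen at the adjusted p-value alone. All 8 epithelial and SK-OV3 markers were detected in every library, with a summed level of 26810 to 30100 normalized counts in siControl and 32150 to 34830 in siPVT1. At the adjusted p-value 3 of them rose (PAX8, KRT8 and KRT18), 3 fell (ERBB2, KRT7 and WT1) and 2 did not pass (EPCAM and MUC16). Those 2 varied widely between libraries. MUC16 had 402, 298 and 624 normalized counts in siControl and 199, 633 and 17.8 in siPVT1. EPCAM had 64.6, 127 and 97.7 in siControl and 51.1, 107 and 41.2 in siPVT1. WT1 was past both thresholds at a log2 fold change of -1.01, and PAX8 was just short at 0.9995. Markers other than WT1 were named after their values were seen.

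All 10 demethylase genes were tested, and reducing PVT1 went with opposite movements inside the set. KDM3A, KDM4B and KDM7A were up-regulated past both thresholds, as were 11.8% of the 19008 genes tested, and KDM6B was down-regulated past both, as were 9.64%. At the adjusted p-value alone, 6 rose (KDM2B, KDM3A, KDM4B, KDM4C, KDM5B and KDM7A), against 29.5% of all genes, and 3 fell (KDM2A, KDM4A and KDM6B), against 28.4%. KDM3B did not pass. In either direction 4 of the 10 passed both thresholds, against 21.5% of all genes, and 9 of the 10 the adjusted p-value, against 57.9%. KDM7A had the lowest siControl mean of the 10, 490 normalized counts, whereas the test took genes from 5. The shares of all genes are therefore not matched to the 10 for level. The median log2 fold change of the 10 was 0.69, against 0.0014 for all genes tested. The 11 other tested JmjC demethylases had a median of 0.039. The 10 were chosen with earlier results of these data known, so these shares and medians are a description and test no excess. In all 10, the 3 libraries of one group lay wholly above the 3 of the other, but 65.6% of all genes were separated in this way, so separation alone was common in this comparison. The siPVT1 libraries were above in 7 of the 10, against 33.2% of all genes, and below in 3, against 32.3%. In bulk RNA, a change in the make-up of the cells and a change of RNA per cell cannot be told apart.

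**Figure D1:**
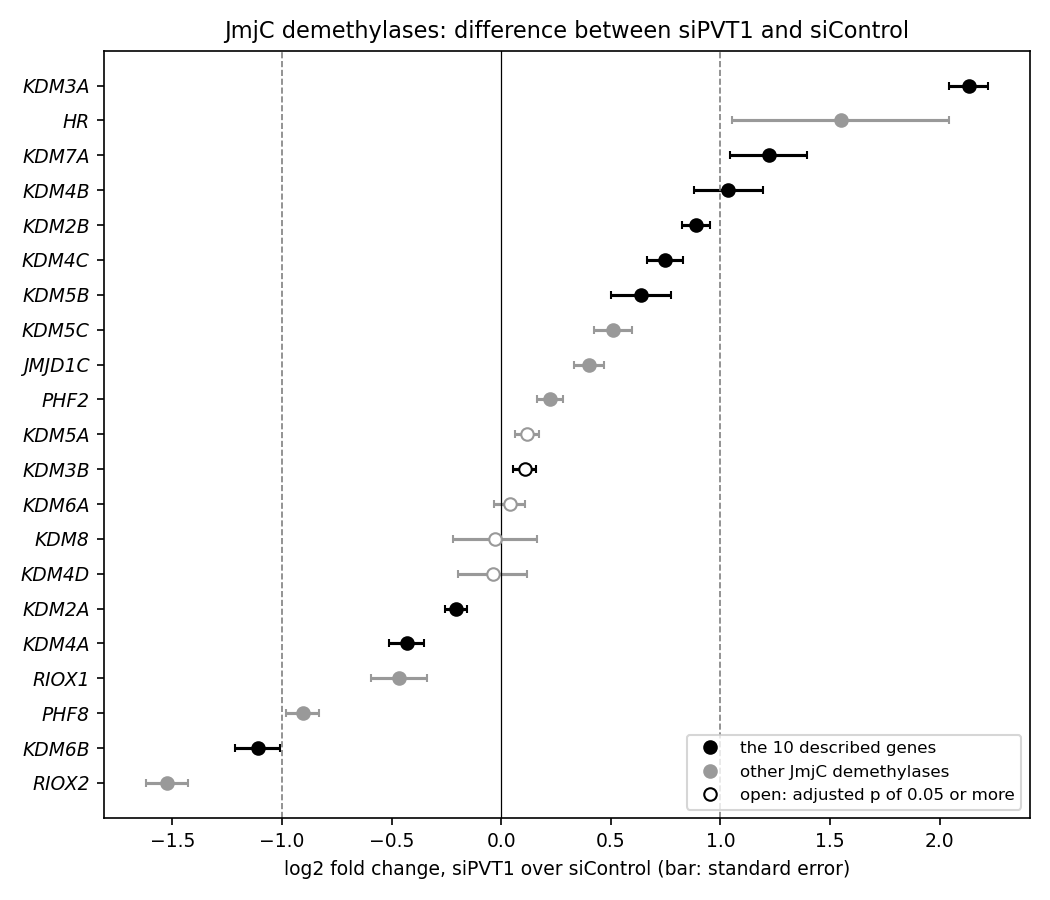
The log2 fold change of siPVT1 over siControl (horizontal axis, with standard error) for the 10 described genes in black and the other tested JmjC demethylases in grey, with dashed lines at a 2-fold change and open points at an adjusted p-value of 0.05 or more. KDM3A stands farthest to the right at 2.13 and KDM6B is the lowest of the black points at -1.11.

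The sequence just before the transcription start is shown for the 4 genes that passed both thresholds, and for KDM3B, whose change did not pass, as the nearest relative of KDM3A. HIF binds an element with the core ACGTG or GCGTG, and both were searched on both strands in the 250 bases before each start in RefSeq promoters of GRCh38.p14. Capitals mark every match and each sequence runs 5′ to 3′ on the strand of its gene. The palindrome CACGTG in KDM4B holds ACGTG once on each strand.
KDM3A, chr2:86441121-86441370, plus strand: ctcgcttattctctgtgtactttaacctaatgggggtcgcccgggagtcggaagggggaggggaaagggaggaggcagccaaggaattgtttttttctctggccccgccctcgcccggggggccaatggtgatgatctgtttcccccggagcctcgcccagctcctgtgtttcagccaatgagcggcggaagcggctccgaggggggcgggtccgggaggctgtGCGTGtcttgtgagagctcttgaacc
KDM4B, chr19:4968863-4969112, plus strand: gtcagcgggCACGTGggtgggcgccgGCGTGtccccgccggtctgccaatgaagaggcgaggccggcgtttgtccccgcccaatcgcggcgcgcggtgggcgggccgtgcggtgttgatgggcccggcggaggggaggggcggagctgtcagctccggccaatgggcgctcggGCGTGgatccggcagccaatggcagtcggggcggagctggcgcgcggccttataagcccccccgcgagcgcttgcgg
KDM7A, chr7:140176984-140177233, minus strand: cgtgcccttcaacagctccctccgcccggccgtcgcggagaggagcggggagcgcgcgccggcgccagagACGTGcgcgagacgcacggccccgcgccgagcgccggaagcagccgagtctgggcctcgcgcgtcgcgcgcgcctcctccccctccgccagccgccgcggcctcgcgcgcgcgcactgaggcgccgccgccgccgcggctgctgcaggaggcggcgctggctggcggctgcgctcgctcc
KDM6B, chr17:7833967-7834216, plus strand: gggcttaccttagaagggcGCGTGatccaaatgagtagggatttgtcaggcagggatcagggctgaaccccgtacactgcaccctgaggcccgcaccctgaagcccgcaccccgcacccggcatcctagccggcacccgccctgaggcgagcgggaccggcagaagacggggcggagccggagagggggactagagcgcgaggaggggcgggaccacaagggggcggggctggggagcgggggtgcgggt
KDM3B, chr5:138352435-138352684, plus strand: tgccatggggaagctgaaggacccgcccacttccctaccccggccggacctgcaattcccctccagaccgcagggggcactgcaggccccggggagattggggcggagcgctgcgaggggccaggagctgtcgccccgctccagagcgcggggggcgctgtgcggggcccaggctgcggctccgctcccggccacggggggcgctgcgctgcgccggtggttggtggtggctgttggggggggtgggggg

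The KDM3A window held GCGTG starting 26 bases before the start, the KDM4B window held both cores, with GCGTG at 224 and 77 bases and ACGTG within the palindrome at 241 and 240, and the KDM7A window held ACGTG at 180. KDM6B, which fell, also held GCGTG, at 231 bases, whereas KDM3B held neither. Of the 10 genes, taking for each the window nearest its MANE Select start, 3 held ACGTG (KDM4B, KDM4C and KDM7A) and 7 held GCGTG, so 8 held at least one of the cores. Among all 35116 promoter windows of the same length, 18.5% held ACGTG, 32.2% held GCGTG and 43.2% held either. Those windows include alternative starts and were not matched to the 10 genes for GC content, so the shares are not a like comparison. A match describes the letters of the window only. GCGTG was in genes that rose (KDM3A, KDM4B, KDM4C and KDM5B) and in the 3 that fell (KDM2A, KDM4A and KDM6B). In KDM4B and KDM4C every ACGTG lay within the palindrome CACGTG. Whether a core goes with the direction of change was not tested. KDM2B, which rose, had no match in the nearest window but held GCGTG in its 3 other windows.

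KDM3A, which removes methyl groups from mono- and dimethylated H3K9, was the most strongly up-regulated of the 10. Its gene (ENSG00000115548, chr2:86440647-86492716, GRCh38, plus strand) had 1143, 1166 and 1212 normalized counts in siControl replicates 1, 2 and 3 and 5782, 4921 and 4731 in the corresponding siPVT1 libraries. The lowest siPVT1 library was thus far above the highest siControl library. The means were 1174 ± 35.6 and 5145 ± 560.2 (SD, n = 3), a 4.38-fold rise (log2 fold change 2.13 ± 0.087 SE, edgeR adjusted p = 1.33e-06). By p-value it ranked 100 among the 19008 genes and by log2 fold change it ranked 565 from the highest. The log2 fold change lay between 1.98 and 2.17 over the 12 alternative settings run for it.

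KDM3B, its close relative with the same histone substrate (ENSG00000120733, chr5:138352685-138437028, plus strand), showed little difference. It had 3591, 3646 and 3679 normalized counts in siControl and 3842, 3993 and 3918 in siPVT1. The siPVT1 libraries all lay above, but by a margin of 1.08-fold that did not pass the test (log2 fold change 0.11 ± 0.052 SE, edgeR adjusted p = 0.116). The sign of the KDM3B difference turned to -0.043 when libraries were scaled by their total count.

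The relation between both H3K9 enzymes therefore turned over. The log2 ratio of KDM3A to KDM3B within a library was -1.652, -1.645 and -1.601 in siControl and 0.59, 0.30 and 0.27 in siPVT1. KDM3B was the more abundant transcript by counts in every siControl library and KDM3A in every siPVT1 library. The ratio rose 4.06-fold, and the groups did not overlap (exact permutation test over libraries, two-sided, p = 0.1, which is as low as 3 against 3 libraries can reach, and 0.114 after Benjamini-Hochberg adjustment over 8 pairs). Per kilobase of the MANE Select transcript, and with the third family member JMJD1C counted in, KDM3A made up 15.6%, 15.4% and 16.2% of the summed KDM3 family level in siControl and 42.0%, 38.7% and 39.3% in siPVT1. JMJD1C was added to these sums after its values were seen. The share of KDM3B went from a mean of 33.8% to 21.3% and that of JMJD1C from 50.4% to 38.7%, while the summed level of the family went from 1569 to 1625 per kilobase in siControl to 2578 to 2950 in siPVT1.

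**Figure D2:**
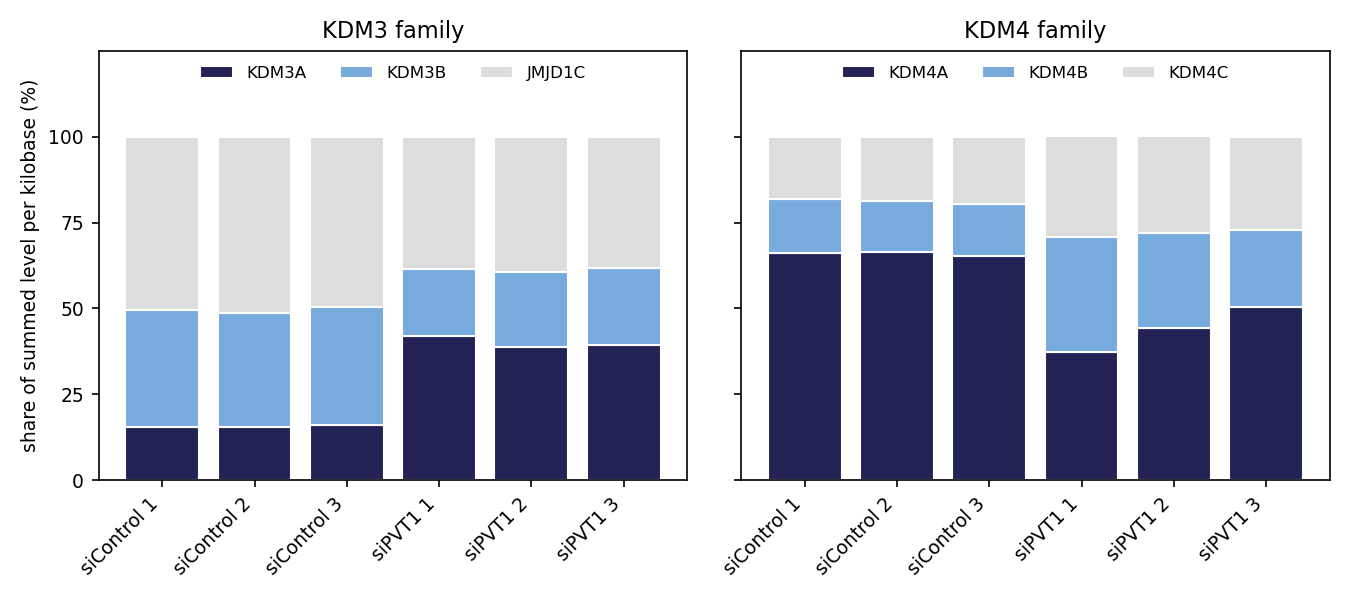
Share of each gene in the summed level per kilobase of transcript (vertical axis, percent) of the KDM3 and KDM4 families, 1 bar per library. KDM3A widens from a mean of 15.7% to 40.0% of its family. KDM4A narrows from a mean of 66.0% to 44.0% of the sum of KDM4A, KDM4B and KDM4C. KDM4D, at 55.5 to 65.4 normalized counts over the libraries, and KDM4E, at or near 0, were left out of that sum.

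Within the KDM4 family, whose enzymes act on trimethylated H3K9 and H3K36, the members moved apart. KDM4B (ENSG00000127663, chr19:4969113-5153598, plus strand) had 792, 747 and 746 normalized counts in siControl and 1964, 1517 and 1209.8 in siPVT1. The groups were well separated, but the siPVT1 libraries differed among themselves, with replicate 1 highest and replicate 3 lowest. The mean rose from 762 ± 26.4 to 1564 ± 379 (SD, n = 3), or 2.05-fold (log2 fold change 1.04 ± 0.158 SE, edgeR adjusted p = 0.000693). This gene passed the 2-fold threshold by a small margin. Without siPVT1 replicate 1 its log2 fold change was 0.82, and with scaling by the total count 0.89, both under the threshold while the adjusted p-value still passed.

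KDM4C, which shares the catalytic activity of KDM4B (ENSG00000107077, chr9:6720863-7175648, plus strand), had 713, 716 and 748 normalized counts in siControl and 1342, 1194 and 1125.5 in siPVT1. All siPVT1 libraries lay above all siControl libraries, and the fitted rise was 1.68-fold, short of the 2-fold threshold (log2 fold change 0.75 ± 0.082 SE, edgeR adjusted p = 0.000115). KDM4A, the KDM4 gene with the highest mean in both groups (ENSG00000066135, chr1:43650149-43705518, plus strand), moved the other way, from 2675.5, 2643 and 2596 normalized counts in siControl to 1767, 1936.5 and 2164 in siPVT1. The fall was 25.8% (log2 fold change -0.43 ± 0.080 SE, edgeR adjusted p = 0.00197). Here siPVT1 replicate 3 was again the library nearest to siControl.

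The log2 ratio of KDM4A to KDM4B was 1.76, 1.82 and 1.80 in siControl and -0.15, 0.35 and 0.84 in siPVT1, so that the ratio fell to 0.367 of its value. The ratio of KDM4A to KDM4C fell to 0.441 of its value. Neither pair overlapped between groups (two-sided exact permutation test, p = 0.1 for each, adjusted 0.114). The ratio of KDM4B to KDM4C was 0.15, 0.060 and -0.0036 on the log2 scale in siControl and 0.55, 0.34 and 0.10 in siPVT1, which overlapped (two-sided exact permutation test, p = 0.2, adjusted 0.2). Per kilobase, KDM4A took 66.1%, 66.4% and 65.4% of the summed level of these 3 genes in siControl and 37.4%, 44.2% and 50.4% in siPVT1. KDM4B went from 15.2% ± 0.363 to 27.8% ± 5.36 and KDM4C from 18.8% ± 0.653 to 28.2% ± 1.13 (SD, n = 3). The sum itself changed less, from 884 to 902 per kilobase in siControl to 958 to 1054 in siPVT1.

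Exons of KDM4A overlap those of the antisense RNA KDM4A-AS1, whose normalized counts were 122, 102 and 109.6 in siControl and 57.8, 56.7 and 86.2 in siPVT1. KDM4A-AS1 fell too (log2 fold change -0.72 ± 0.194 SE, edgeR adjusted p = 0.0124). The strand setting of the counting is not given in the sources used here, so reads of an overlapping pair may not be separable. Exons of KDM4A also overlap the protein-coding gene ENSG00000284989, and exons of KDM4C overlap the lncRNA ENSG00000225489. Both lie on the same strand as the demethylase gene, where no strand setting separates the reads. KDM4A-AS1 was far below KDM4A in counts. KDM7A-DT, the divergent transcript beside KDM7A, did not pass the test (log2 fold change -0.32 ± 0.331 SE, edgeR adjusted p = 0.44).

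Of the H3K27 demethylases of the KDM6 family, KDM6B fell and KDM6A did not pass the test. KDM6B, also known as JMJD3, opens genes silenced by H3K27 trimethylation (ENSG00000132510, chr17:7834217-7854796, plus strand). It had 1607, 1633 and 1589 normalized counts in siControl and 837, 774 and 627 in siPVT1. Every siPVT1 library was well below every siControl library. The mean fell by 53.7%, from 1609.8 ± 22.2 to 746 ± 108 (SD, n = 3), with a log2 fold change of -1.11 ± 0.104 (SE) and an edgeR adjusted p of 5.12e-05. It stayed past both thresholds under each setting that kept them, with log2 fold changes from -1.26 to -1.01. KDM6A, an enzyme with the same substrate, had means of 1692 and 1738 (log2 fold change 0.04 ± 0.072 SE, edgeR adjusted p = 0.672). The ratio of KDM6B to KDM6A fell to 0.449 of its value, from nearly equal counts in siControl (log2 ratios -0.092, -0.077 and -0.047) to -0.96, -1.13 and -1.59 in siPVT1, without overlap (two-sided exact permutation test, p = 0.1, adjusted 0.114).

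KDM7A, which demethylates H3K9 and H3K27 in their lower methylation states (ENSG00000006459, chr7:140084746-140176983, minus strand), had 488, 486 and 496 normalized counts in siControl. In siPVT1 it had 1405, 1205 and 820.0. All siPVT1 libraries were higher, but their level was far less uniform than in siControl, with replicate 3 nearest to it. The mean rose 2.33-fold (log2 fold change 1.22 ± 0.176 SE, edgeR adjusted p = 0.000516), and the log2 fold change ranged from 1.03 to 1.40 under the alternatives. Its relative PHF8, which acts on H3K9 and H4K20, fell from a mean of 1058 ± 11.3 to 565 ± 41.0 (SD, n = 3), with a log2 fold change of -0.91 ± 0.076 (SE) and an edgeR adjusted p of 2.91e-05. The log2 ratio of KDM7A to PHF8 was -1.13, -1.11 and -1.09 in siControl and 1.21, 1.10 and 0.64 in siPVT1, a 4.27-fold shift without overlap (two-sided exact permutation test, p = 0.1, adjusted 0.114). PHF8 was the more abundant of the pair in siControl and KDM7A in siPVT1.

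KDM5B, which removes methyl groups from H3K4 (ENSG00000117139, chr1:202724495-202808487, minus strand), had 2286, 2336 and 2244 normalized counts in siControl and 4252, 3654 and 2787 in siPVT1. The groups were apart, with siPVT1 replicate 3 closest to siControl. The rise was 1.56-fold (log2 fold change 0.64 ± 0.136 SE, edgeR adjusted p = 0.004). KDM5A, its relative, had means of 6206 and 6734 and did not pass the test (log2 fold change 0.12 ± 0.053 SE, edgeR adjusted p = 0.0898). The ratio of KDM5B to KDM5A rose 1.41-fold, from log2 values of -1.472, -1.395 and -1.451 to -0.62, -0.90 and -1.30, and the groups did not overlap (two-sided exact permutation test, p = 0.1, adjusted 0.114).

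The H3K36 demethylases of the KDM2 family, which bind unmethylated CpG islands, went in opposite directions, and in siPVT1 they had the lowest coefficients of variation of the 10 genes. KDM2B (ENSG00000089094, chr12:121429096-121581023, minus strand), which also brings a Polycomb complex to CpG islands, had 948, 866 and 891 normalized counts in siControl and 1677, 1642 and 1686 in siPVT1. It rose 1.85-fold (log2 fold change 0.89 ± 0.064 SE, edgeR adjusted p = 1.37e-05). Its exons overlap RNF34 and KDM2B-DT on the other strand. KDM2A (ENSG00000173120, chr11:67119263-67258082, plus strand) had 5679.6, 5518.5 and 5609 normalized counts in siControl and 4854, 4800.3 and 4927.5 in siPVT1. That difference was small but larger than the spread between libraries, a fall of 13.2% (log2 fold change -0.20 ± 0.051 SE, edgeR adjusted p = 0.00888). The log2 ratio of KDM2A to KDM2B went from 2.58, 2.67 and 2.65 to 1.53, 1.55 and 1.55, or to 0.468 of its value, without overlap (two-sided exact permutation test, p = 0.1, adjusted 0.114).

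**Figure D3:**
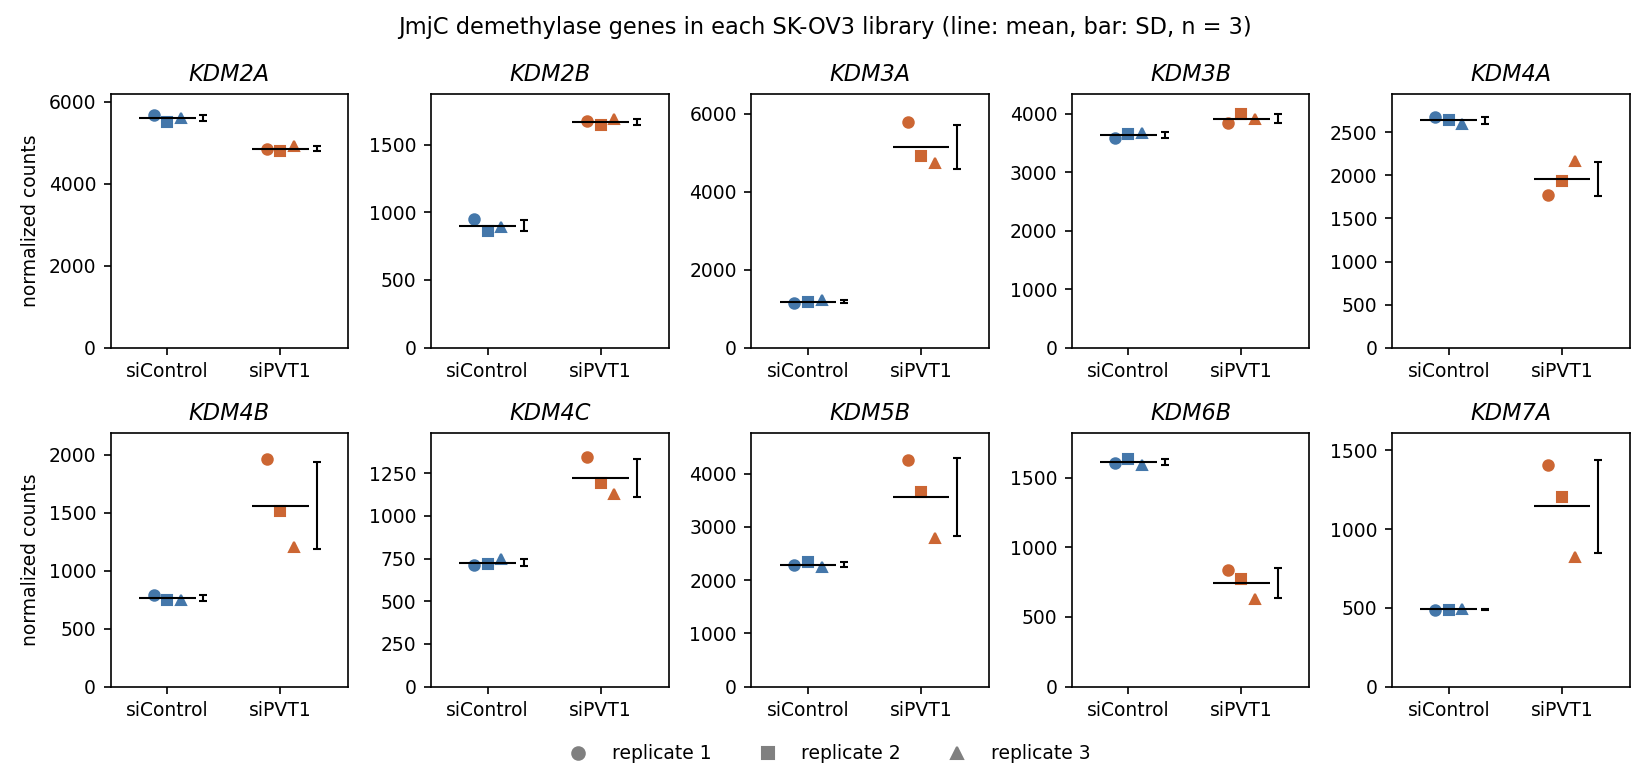
Normalized counts (vertical axes, each starting at 0) of the 10 genes in each siControl and siPVT1 library, with a marker shape for each replicate, a line at the mean and a bar of 1 SD (n = 3). In KDM7A the siPVT1 points spread from 820.0 to 1405, all above the siControl points, while in KDM2A and KDM2B the points of a group lie close together.

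**Figure D4:**
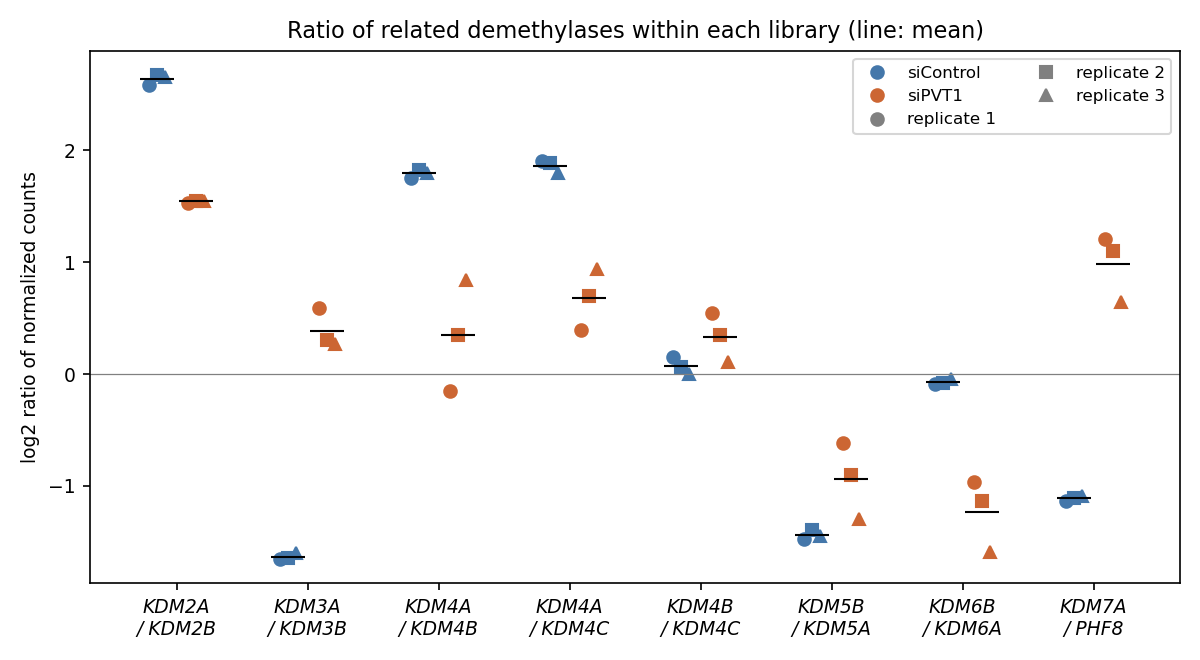
The log2 ratio of normalized counts of related demethylases within each library (vertical axis), with a line at each group mean. The KDM3A to KDM3B and KDM7A to PHF8 ratios cross 0 between siControl and siPVT1, and the KDM4B to KDM4C ratio is the 1 pair of 8 whose groups overlap.

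Of the 8 ratios, 7 were without overlap, but 65.6% of single genes were also without overlap and no such share was computed for other gene pairs, so the count of 7 is a description. A ratio within a library does not depend on how libraries are scaled to each other. The pairs share genes within the KDM4 family, so they are not independent. Salmon divides reads shared by close relatives by estimation, which adds uncertainty to counts of paralogs.

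By level per kilobase of MANE Select transcript, the order of the 10 genes changed. In siControl it ran from KDM2A (758.5 ± 10.9) through KDM4A (588 ± 8.89), KDM3B (541 ± 6.59), KDM3A (251.5 ± 7.62), KDM5B (246 ± 4.92), KDM6B (239 ± 3.30), KDM2B (169.6 ± 7.94), KDM4C (167 ± 4.44) and KDM4B (136 ± 4.71) to KDM7A (53.1 ± 0.564; SD, n = 3). KDM3A and KDM5B, KDM5B and KDM6B, and KDM2B and KDM4C were neighbours within about their spread. In siPVT1, KDM3A led (1102 ± 120.0), followed by KDM2A (658 ± 8.65), KDM3B (583 ± 11.2), KDM4A (436 ± 44.4), KDM5B (384 ± 79.3), KDM2B (314 ± 4.35), KDM4C (281 ± 25.5), KDM4B (279 ± 67.7), KDM7A (124 ± 32.3) and KDM6B (111 ± 16.0). In that group KDM4A and KDM5B, KDM5B and KDM2B, KDM4C and KDM4B, and KDM7A and KDM6B were not apart beyond their spread. KDM3A thus moved from the fourth place to the first and KDM6B from the sixth to the last.

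The siPVT1 libraries were less alike than the siControl libraries for 8 of the 10 genes. The share of all genes with this difference was not computed, but it was not confined to the 10. Over the table as a whole, pairs of siPVT1 libraries differed by a chi-square per degree of freedom of 9.44 to 50.5. Pairs of siControl libraries differed by 1.79 to 6.2. Coefficients of variation between siPVT1 libraries were 26.0% for KDM7A, 24.2% for KDM4B and 20.7% for KDM5B, against 1.06% to 4.68% over the 10 genes in siControl. KDM2A (1.31%) and KDM2B (1.38%) varied less in siPVT1 than in siControl. Of the 6 genes that rose, 5 (KDM3A, KDM4B, KDM4C, KDM5B and KDM7A) were highest in siPVT1 replicate 1 and lowest in replicate 3, an order found in 45.3% of all 5612 genes that rose. Replicate 3 was the siPVT1 library nearest to siControl for 7 of the 10 genes, against 50.2% of all tested genes. Replicate 1 was the library farthest from siControl for 6 of the 10, against 48.9% of all tested genes, and it had the most remaining PVT1 of the siPVT1 group (2343.5 normalized counts). The part of any 1 library's RNA or transfection in these orders was not tested.

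Genes that HIF is known to activate rose as a group in the same libraries. All 16 listed HIF targets rose, against 29.5% of all genes tested, with a median log2 fold change of 1.91. Of these, 13 were up-regulated past both thresholds, against 11.8%. CA9, among the 13, had 1 count in each siControl library, so its fold change is uncertain. The list was chosen with earlier results of these data known. BNIP3, a mitophagy receptor, went from a mean of 1500 to 13096 normalized counts (log2 fold change 3.13 ± 0.075 SE, edgeR adjusted p = 1.74e-07). LDHA, lactate dehydrogenase, had a log2 fold change of 1.55 ± 0.059 (SE, edgeR adjusted p = 9.36e-07), and P4HA1, a collagen prolyl hydroxylase that like the demethylases uses oxygen and 2-oxoglutarate, one of 2.25 ± 0.095 (SE, edgeR adjusted p = 1.45e-06). The order with replicate 1 highest and replicate 3 lowest held in 13 of the 16 (81.2%). Whether the demethylase genes moved through HIF was not tested. The endothelial markers PECAM1, CDH5 and VWF rose as well, 3 of 3, with a summed level of 2041 to 2067 normalized counts in siControl and 8585 to 10850 in siPVT1. CDH5 was already at 1985, 1999 and 1994 in siControl. Of the leukocyte markers, PTPRC and CD3E were at or near 0 in every library and CD14 fell, from a summed level of the 3 markers of 8.06 to 9.50 in siControl to 2.18 to 3.33 in siPVT1. Of the fibroblast markers, all low, DCN was near 0, PDGFRA had 6.65, 9.07 and 0 normalized counts in siControl and 34.4, 25.1 and 9.37 in siPVT1 (edgeR adjusted p = 0.0455), and LUM had 14.2, 24.2 and 9.21 against 7.77, 11.99 and 1.87 (edgeR adjusted p = 0.132). LUM was named after its values were seen. The 3 summed to 9.21 to 33.3 in siControl and 11.3 to 43.3 in siPVT1. The part of other cell types in the demethylase changes was not tested.

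**Figure D5:**
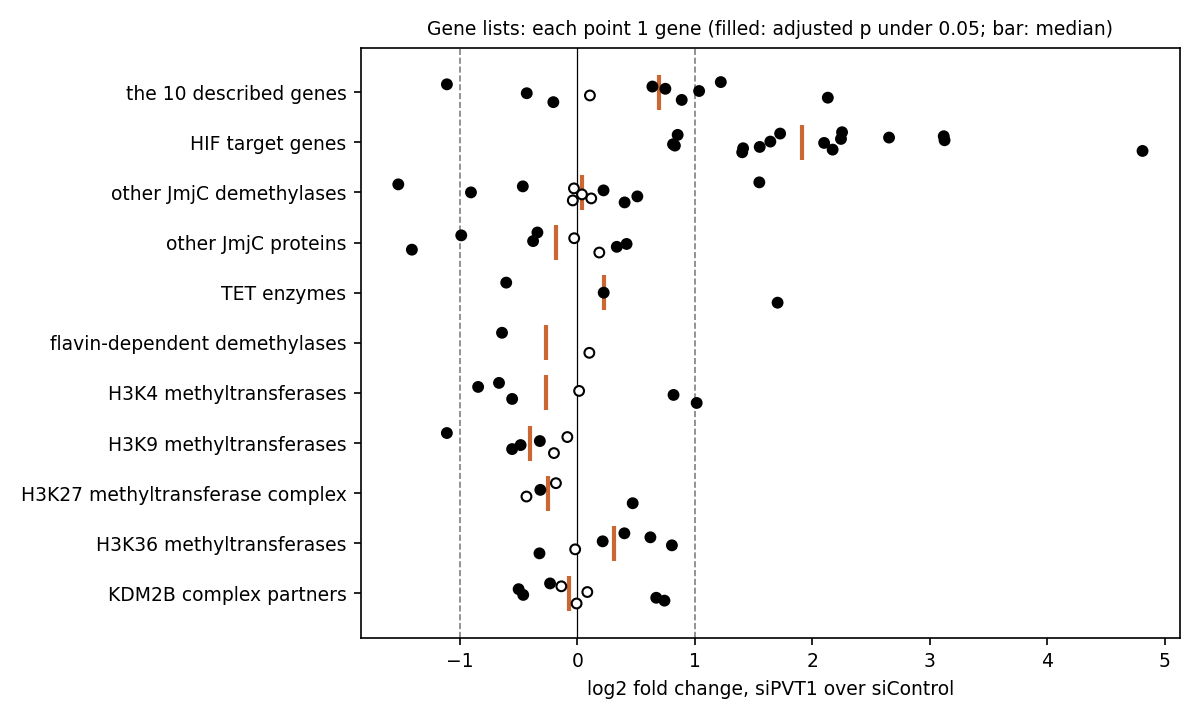
The log2 fold change of siPVT1 over siControl (horizontal axis) for the 10 described genes and 10 comparison lists, 1 point per tested gene, filled where the adjusted p-value was under 0.05, with a bar at each median. The HIF targets lie wholly to the right of 0 with a median of 1.91, while the other JmjC demethylases centre on 0.039 and the H3K9 methyltransferases on -0.40.

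The remaining JmjC demethylases moved in both directions. Of 12, 11 were tested, 4 rose and 3 fell at the adjusted p-value, against 29.5% and 28.4% of all genes. In each direction 1 passed both thresholds, against 11.8% higher and 9.64% lower of all genes. The median log2 fold change was 0.039. RIOX2, a ribosomal oxygenase, fell from a mean of 2167 ± 134 to 752 ± 84.7 (SD, n = 3; log2 fold change -1.52 ± 0.094 SE, edgeR adjusted p = 6.76e-06). HR, the hairless corepressor, passed at very low counts, 2.85, 2.02 and 6.45 in siControl and 7.77, 14.2 and 12.2 in siPVT1 (log2 fold change 1.55 ± 0.496 SE, edgeR adjusted p = 0.0267). That call was lost with DESeq2 (adjusted p = 0.077), and in edgeR without siControl replicate 1 (adjusted p = 0.0865), siControl replicate 2 (0.0776) or siPVT1 replicate 2 (0.0828). Among 8 other JmjC proteins, 2 rose and 4 fell (median -0.18). JMJD4, a lysyl hydroxylase, was the 1 past both thresholds (log2 fold change -1.41 ± 0.164 SE, edgeR adjusted p = 0.00016). HSPBAP1, named after its values were seen, was just short (log2 fold change -0.989, edgeR adjusted p = 8.8e-05). It passed both thresholds with DESeq2 or its size factors and with scaling by the total count. The same held without siControl replicate 1, siPVT1 replicate 1 or siPVT1 replicate 2. The 2 flavin-dependent demethylases, which need no 2-oxoglutarate, had 1 that fell and 1 that did not pass (median -0.27).

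Among the enzymes that write or oppose the same marks, 4 of the 6 H3K9 methyltransferases fell, against 28.4% of all genes tested. All 6 had negative log2 fold changes, with a list median of -0.40. SUV39H1 (-0.20, edgeR adjusted p = 0.242) and SETDB1 (-0.086, edgeR adjusted p = 0.266) did not pass. SETDB2 passed both thresholds (mean 627 to 290, log2 fold change -1.11 ± 0.079 SE, edgeR adjusted p = 1.25e-05), as did 9.64% of all genes in that direction. The summed level of these 6 genes was 5929 to 6079 normalized counts in siControl and 4295 to 4790 in siPVT1. For the lists that follow, 29.5% of all genes tested rose and 28.4% fell, and 11.8% and 9.64% did so past both thresholds. Of 6 H3K4 methyltransferases, 2 rose and 3 fell (median -0.27). KMT2A rose just past both thresholds (log2 fold change 1.02 ± 0.065 SE, edgeR adjusted p = 7.8e-06), and was under the 2-fold threshold with scaling by the total count (0.86) and without siControl replicate 3 (0.97), siPVT1 replicate 1 (0.97) or siPVT1 replicate 2 (0.999). Among 4 genes of the H3K27 methyltransferase complex, 1 rose and 1 fell (median -0.25), and among 6 H3K36 methyltransferases 4 rose and 1 fell (median 0.31, range -0.32 to 0.80). Of 8 partners of KDM2B in its Polycomb complex, 2 rose and 3 fell, with log2 fold changes from -0.50 to 0.74. Of the 3 TET enzymes, DNA demethylases that share the cofactors of the JmjC family, 2 rose and 1 fell, and TET1 rose past both thresholds (mean 83.7 to 273, log2 fold change 1.70 ± 0.122 SE, edgeR adjusted p = 1.32e-05).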

How the data were processed

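RNA of SK-OV3 cells was measured in 3 siControl and 3 siPVT1 libraries. Per the study's methods and the submitters' processing notes, the authors aligned 75-bp single-end reads with STAR 2.7.3a to the GENCODE transcriptome (GRCh38.p13) and counted them with Salmon 0.14.1. The deposited values are estimated counts for each gene symbol, stored as whole numbers and not normalized. The strand setting is not given in the sources used here. The counts were compared by edgeR 4.0.16 in R 4.3.3, with TMM scaling, its quasi-likelihood test and Benjamini-Hochberg adjustment, in the 19008 genes that reached 5 normalized counts in 3 or more libraries. The SE was taken from the log2 fold change and F. The 25268 genes at 0 in every library were not tested. Replicates differed beyond sampling noise (chi-square per degree of freedom 1.79 to 6.2 in siControl and 9.44 to 50.5 in siPVT1), so each counted once.

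The 10 members, the comparison lists and the naming rule were chosen with earlier results of these data known. All 10 members were named, with the genes of the pairs and, from each list, up to 3 genes higher and 3 lower past both thresholds. Ratios were tested by exact permutation over libraries. Levels per kilobase used MANE Select lengths of GENCODE v44. The scripts were tested on simulated data. DESeq2 1.42.0, other scalings and filters, a replicate block, each library left out, and other thresholds were the alternatives.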

Additional observations from a re-analysis of the deposited data

How the results depend on the processing

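The counts moved with the thresholds. Past both thresholds, 4081 genes were called (2248 higher, 1833 lower), among them 4 demethylases (3 higher, 1 lower), and 19 genes of the comparison lists (16 higher, 3 lower). The adjusted p-value alone called 11007 (5612 higher, 5395 lower), 9 demethylases (6 higher, 3 lower) and 55 list genes (33 higher, 22 lower). In edgeR's glmTreat, a test against a 2-fold change, 1976 genes were called (1184 higher, 792 lower) with 1 demethylase, KDM3A, higher and 0 lower. At an unadjusted p under 0.05 glmTreat had 2 higher and 0 lower. DESeq2 at both thresholds of the main test called 3 higher and 1 lower, the same counts as edgeR.

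Scaling by the total count moved the median of all genes to -0.15 on the log2 scale and the share of higher genes among calls from 55.1% to 43.8%. It turned KDM3B to -0.043, took KDM4B to 0.89, and gave 5 lower list genes. Leaving out 1 library in turn left 3 to 4 demethylases called, 17 to 19 list genes and 3507 to 4239 genes, with KDM4B lost without siPVT1 replicate 1. In 117 of 120 fold changes of single members the direction and the call were as reported, and KDM3B and KDM4B account for the other 3. The change in the log2 ratio of KDM2A to KDM2B, siPVT1 minus siControl, ran from -1.12 to -1.08 with a siControl library left out. The changes of other pairs moved more with a siPVT1 library left out. For KDM4A to KDM4B the change was -1.69 without replicate 3 and -1.20 without replicate 1. For KDM5B to KDM5A the change was 0.34 without replicate 1 and 0.68 without replicate 3. For KDM4B to KDM4C it was 0.16 and 0.38 likewise. Across libraries left out, 7 to 8 of the 8 pairs had no overlap.

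The labels give both groups replicate numbers 1 to 3 without saying whether same-numbered libraries were paired. Same-numbered libraries did not deviate together (r = -0.037, 0.029 and 0.0023 across genes). These values cannot show whether the samples were set up in pairs, and the main test used no pairing. With the replicate block, 3924 genes and the same 4 demethylases were called.

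With 3 libraries a group, the exact test of a ratio cannot go below p = 0.1. The siPVT1 libraries differed more among themselves than the siControl libraries for 8 of the 10 genes, most of all for KDM7A, KDM4B and KDM5B. Over the table as a whole, siPVT1 library pairs also differed more than siControl pairs, so this spread is not particular to the 10.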
